A study of Mus musculus with 4 samples.

Results

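The 4 genes described here make, import and use creatine: Gatm, Gamt, Slc6a8 and Ckb. They are 4 of the 31053 genes in the deposited matrices and were found by their symbols, 1 row each. They were chosen on measured values, with the contrast of DOCA-salt and sham hearts in view, so their values in that contrast are given as a description without a test. The same holds for differences between cell classes, since the classes are clusters of the same cells.

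The cells were leukocytes of the left ventricle of C57Bl6J mice. One group of 4 mice had received DOCA-salt (deoxycorticosterone acetate, a mineralocorticoid, with salt), a regimen used to raise blood pressure, and the other group of 4 mice was sham-treated. The labels used here give no age and no duration. Cells carrying CD45, the leukocyte surface protein encoded by Ptprc, were selected, marked with hashtag antibodies, pooled by group and sequenced from the 5' end of the RNA, so each group is 1 library and group and library cannot be told apart. Each of the 4 hashtags of a library is taken here as 1 mouse, since the labels give 4 biological replicates a group but do not tie a hashtag to an animal.

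Creatine is made in a pair of steps. Gatm (glycine amidinotransferase) joins a group from arginine to glycine, which yields guanidinoacetate and ornithine, and Gamt (guanidinoacetate methyltransferase) methylates guanidinoacetate with S-adenosylmethionine. Slc6a8 carries creatine across the plasma membrane, and Ckb, the cytosolic brain-type creatine kinase, moves phosphate between ATP and creatine. The heart is known for its use of creatine phosphate as an energy buffer, in cardiomyocytes mainly through the muscle kinases Ckm and Ckmt2.

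In GRCm38, Gatm (ENSMUSG00000027199) lies on the minus strand at chr2:122594467-122611303, and Gamt (ENSMUSG00000020150) on the minus strand at chr10:80258151-80261012. Slc6a8 (ENSMUSG00000019558) lies on the plus strand at chrX:73673150-73682502, and Ckb (ENSMUSG00000001270) on the minus strand at chr12:111669361-111672338. RefSeq promoter sequences (GRCm38.p6) were matched for 3 of the 4 genes. The 250 bases before the RefSeq start of Gatm (chr2:122611278-122611527) and Ckb (chr12:111672339-111672588) are printed because these were the abundant members in myeloid cells, and those of Gamt (chr10:80261013-80261262) because it completes the synthesis. The RefSeq start of Gatm, at position 122611277, lies inside the gene as GENCODE annotates it, with its start at 122611303, so the end of that window is within the GENCODE gene, and distances are counted from the RefSeq start. All 3 are on the minus strand and read 5' to 3', and capitals mark the letters of the motifs searched.
Gatm: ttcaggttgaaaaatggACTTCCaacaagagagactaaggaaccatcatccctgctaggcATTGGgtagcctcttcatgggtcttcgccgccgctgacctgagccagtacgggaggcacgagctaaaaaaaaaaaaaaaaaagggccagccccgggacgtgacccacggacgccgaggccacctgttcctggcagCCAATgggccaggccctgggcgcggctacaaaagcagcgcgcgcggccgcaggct
Gamt: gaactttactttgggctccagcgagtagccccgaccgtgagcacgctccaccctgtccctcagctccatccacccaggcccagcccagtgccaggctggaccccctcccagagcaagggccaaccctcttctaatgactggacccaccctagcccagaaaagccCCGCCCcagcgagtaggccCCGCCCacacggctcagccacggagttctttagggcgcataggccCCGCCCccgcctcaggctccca
Ckb: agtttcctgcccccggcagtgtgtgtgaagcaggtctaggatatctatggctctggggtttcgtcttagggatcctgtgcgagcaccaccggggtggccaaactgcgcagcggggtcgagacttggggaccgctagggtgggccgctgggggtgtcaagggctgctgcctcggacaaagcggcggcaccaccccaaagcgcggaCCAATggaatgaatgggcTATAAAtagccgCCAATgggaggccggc
The motifs searched on both strands were the CCAAT box, the TATA box spelled as TATAAA, the GC box spelled as GGGCGG, a core of steroid hormone response elements spelled as AGAACA and an ETS core spelled as GGAAGT. No marked match overlaps another. Gatm held CCAAT 190 bases (reverse strand) and 55 bases before its start, and GGAAGT 233 bases before it on the reverse strand. Gamt held GGGCGG on the reverse strand 86, 67 and 22 bases before its start. Ckb held CCAAT 46 and 16 bases and TATAAA 28 bases before its start. Of 32851 promoter windows of the same length, 33.8% held the CCAAT box, 12.4% the TATA box, 32.7% the GC box, 16.1% the steroid response core and 19.7% the ETS core. The steroid response core was in none of these 3 windows, which says only that these letters are not there. The windows were 59.2%, 66.8% and 62.8% G and C for Gatm, Gamt and Ckb, against a median of 52.4% over all windows.

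After filtering, 6864 DOCA-salt and 4080 sham cells were assigned to a mouse, with 764 to 2172 cells per DOCA-salt mouse and 624 to 1281 per sham mouse. The median was 3228 UMIs (counted RNA molecules) per DOCA-salt cell and 2811.5 per sham cell, and the libraries shared 41 barcodes. Ptprc was detected in 80.2% of DOCA-salt cells and 75.0% of sham cells. The cells formed 30 clusters, of which 25 were named by their markers as 11 classes and 5 stayed unnamed. The macrophage-like cells came from 5 of the named clusters, which were split from 1 cluster and kept the name its markers gave. Each is called by its leading gene. Values are CPM, which divide the UMIs of a gene by all RNA UMIs in 1 mouse's cells of 1 class and put them on a fixed scale, and only mice with at least 5 such cells are counted. With 3 or 4 mice per group, p-values set the difference between the groups against the spread between mice within a library. That difference is also one between libraries.

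Gatm, the first enzyme of synthesis, was a gene of cDC1-like and macrophage-like cells. It averaged 333 CPM in cDC1-like cells of the 2 mice with enough cells (281 and 384, both DOCA-salt). In macrophage-like cells it averaged 279.9 CPM (SD 127, 8 mice, 112 to 439). These neighbours in the order overlapped over all mice. Among DOCA-salt mice alone, macrophage-like cells (112 to 196 CPM) lay below both cDC1-like values. Every other class lay well below these classes. The 1 counted mouse with cDC2-like cells had 47.0 CPM, and classical monocyte-like cells averaged 14.9 CPM (SD 16.7, 6 mice). ILC2-like, nonclassical monocyte-like, T-like, NK-like, B-like and neutrophil-like cells averaged 10.5, 9.63, 7.10, 5.88, 4.12 and 1.97 CPM, with ranges that overlapped each other. The 1 mouse with migratory DC-like cells had no Gatm UMI.

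Among macrophage-like cells Gatm was lower in DOCA-salt hearts. The 4 DOCA-salt mice had 173, 192, 112 and 196 CPM (313, 133, 22 and 122 UMIs), against 439, 308, 412 and 407 CPM in the 4 sham mice (53, 103, 70 and 133 UMIs). The groups did not overlap, and the highest DOCA-salt mouse stood clear of the lowest sham mouse. The means were 169 ± 38.9 CPM in DOCA-salt mice and 391 ± 57.6 CPM in sham mice (SD, n = 4 each) and the log2 change was -1.19 (SE 0.19). Of the 4705 genes measured in this class, 126 (2.68%) were lower in every DOCA-salt mouse than in any sham mouse, and nothing is read from that share since the gene was chosen on this contrast. The class held 723 DOCA-salt cells and 301 sham cells, with a median of 3791 and 2926 UMIs.

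**Figure D1:**
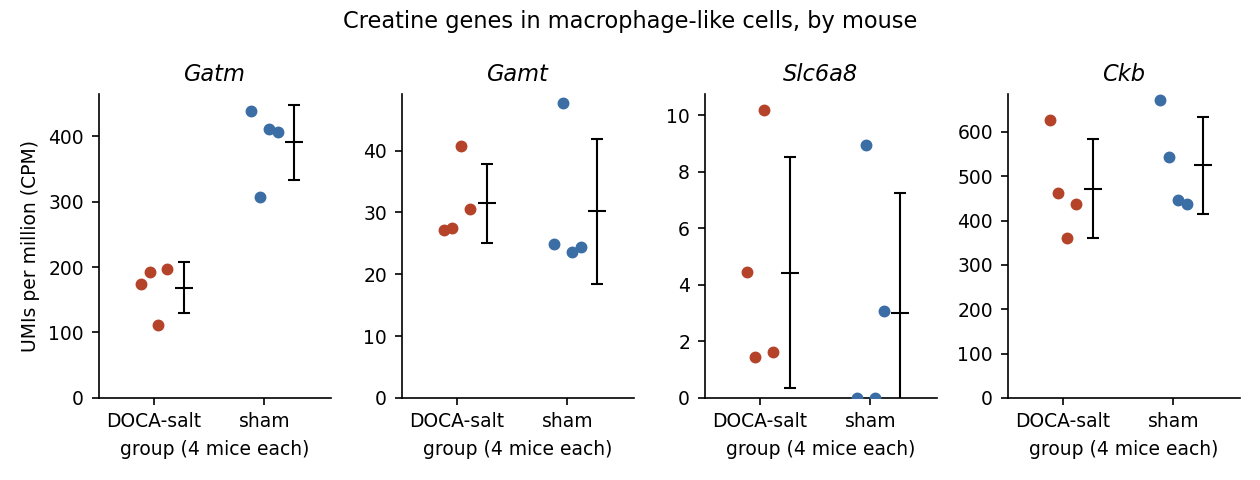
CPM of Gatm, Gamt, Slc6a8 and Ckb in macrophage-like cells, 1 point per mouse, DOCA-salt left and sham right, with the mean and SD in black beside the points. The 4 DOCA-salt mice lie between 112 and 196 CPM for Gatm, below all sham mice at 308 to 439, while the groups overlap for the other 3 genes.

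Of the marker lists summed in these cells, the MHC class II, classical monocyte, neutrophil and red cell sums separated the groups by mouse. The sums of all other lists overlapped between the groups. The 4 MHC class II genes of antigen presentation (H2-Aa, H2-Ab1, H2-Eb1 and Cd74) summed to 36069 to 73615 CPM in DOCA-salt mice and 75276 to 98339 CPM in sham mice. The 6 classical monocyte markers, all detected, summed to 1447 to 1997 CPM in DOCA-salt mice and 759 to 1326 CPM in sham mice. The 6 neutrophil markers summed to 61.0 to 337 CPM in DOCA-salt mice and 20.9 to 58.8 CPM in sham mice, where Retnlg and Cxcr2 were at 0. Red cell genes summed to 3.33 to 18.8 CPM in DOCA-salt mice and 32.8 to 49.7 CPM in sham mice. The part of these in the Gatm difference was not tested. The 9 macrophage markers summed to 24937 ± 2599 CPM in DOCA-salt mice and 26247 ± 2311 CPM in sham mice (SD, n = 4 each).

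The mean shares of the macrophage-like subsets differed between the groups, so Gatm was taken within each. By mouse the share of every subset overlapped between the groups. The Lyve1-led subset, also led by Ccl24 and Pf4, held 214 DOCA-salt and 135 sham cells. Its Gatm was 283, 259.8, 129 and 243 CPM in DOCA-salt mice, against 609, 413, 419.7 and 376 CPM in sham mice. The groups did not overlap, with a log2 change of -0.86 (SE 0.19); of 3022 genes measured in the subset 2.18% were lower in that way. The Egr1-led subset, also led by the immediate early genes Fos and Dusp1, held 67 DOCA-salt and 57 sham cells. Its Gatm was 175, 228, 90.4 and 269.7 CPM in DOCA-salt mice and 398, 337, 542 and 708 CPM in sham mice. These too did not overlap, with a log2 change of -1.43 (SE 0.35), against 1.47% of 680 genes lower in that way.

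The other macrophage-like subsets gave no clear separation. The Ms4a4c-led subset, also led by the interferon-induced Ifit1 and by Chil3, had 193 DOCA-salt and 17 sham cells. Its Gatm was 138, 87.3, 29.2 and 67.1 CPM in DOCA-salt mice, against 25.6 and 239 CPM in the 2 sham mice with enough cells. Both groups were wide there, and among DOCA-salt mice the mean of 80.3 CPM was the lowest of the 5 subsets. In the Ube2c-led subset, led by cell cycle genes, Gatm was 209, 225 and 251 CPM in 3 DOCA-salt mice and 0, 301, 309 and 584 CPM in sham mice, the 0 resting on 7587 UMIs in all. Depth differed there, with a median of 2772 UMIs in DOCA-salt and 1307 in sham cells. The sham values rest on 26 Gatm UMIs in 44 cells. In the Kcnq1ot1-led subset, whose cells were shallow (median 1286.5 UMIs in DOCA-salt and 1074.5 in sham cells), Gatm was 214, 91.9, 212 and 196 CPM in DOCA-salt mice and 446, 114 and 166 CPM in 3 sham mice. The groups overlapped in all 3 of these subsets.

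The Ms4a4c-led subset made up 20.4% ± 14.2 of macrophage-like cells in DOCA-salt mice and 5.03% ± 3.94 in sham mice (SD, n = 4 each). By mouse this was 8.20 to 40.9% in DOCA-salt and 0 to 9.62% in sham mice, which overlapped. The Lyve1-led subset made up 34.6% ± 14.8 in DOCA-salt mice (14.0 to 49.4%) and 42.9% ± 10.4 in sham mice (35.1 to 58.2%), which overlapped too. Without the Ms4a4c-led cells the log2 change of Gatm was -1.03, against -1.19 over all macrophage-like cells. With equal weight for each subset that had at least 5 cells in a mouse it was -0.98 on log2(CPM + 10). The Ms4a4c-led subset entered that value for 4 DOCA-salt and 2 sham mice. The Ube2c-led subset entered for 3 and 4 and the Kcnq1ot1-led subset for 4 and 3, so a difference in makeup remains in it.

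**Figure D2:**
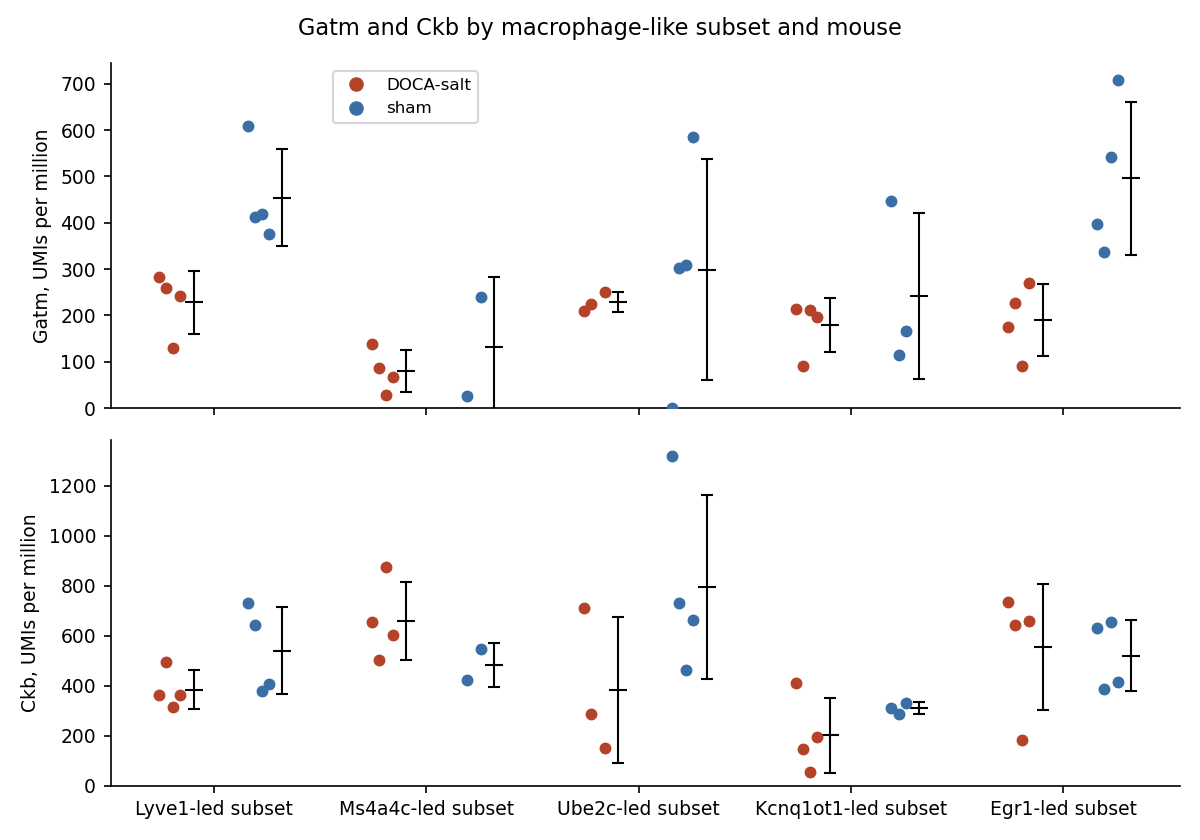
Gatm (top) and Ckb (bottom) in CPM by macrophage-like subset, 1 point per mouse with at least 5 cells, DOCA-salt left of sham in each pair, with the mean and SD in black beside each group. Gatm separates the groups in the Lyve1-led and Egr1-led subsets, whereas Ckb overlaps in every subset where both groups have 4 mice.

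At equal depth the share of cells pooled over mice and subsets was also lower in DOCA-salt hearts, a value that rests on the same UMIs. With each cell thinned to 1000 UMIs, 16.7% of 672 DOCA-salt macrophage-like cells held a Gatm UMI (95% Clopper-Pearson interval 13.9 to 19.7), against 30.4% of 257 sham cells (24.8 to 36.4). Without thinning the shares were 40.4% of DOCA-salt cells and 50.5% of sham cells, and 51 DOCA-salt and 44 sham cells were too shallow to thin. In B-like cells, taken as the background of free RNA, the thinned shares were 0.280% in DOCA-salt and 0.328% in sham cells, at a median of 2902 and 2622 UMIs. These intervals cover counting error only, and cells of 1 mouse are not independent.

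**Figure D3:**
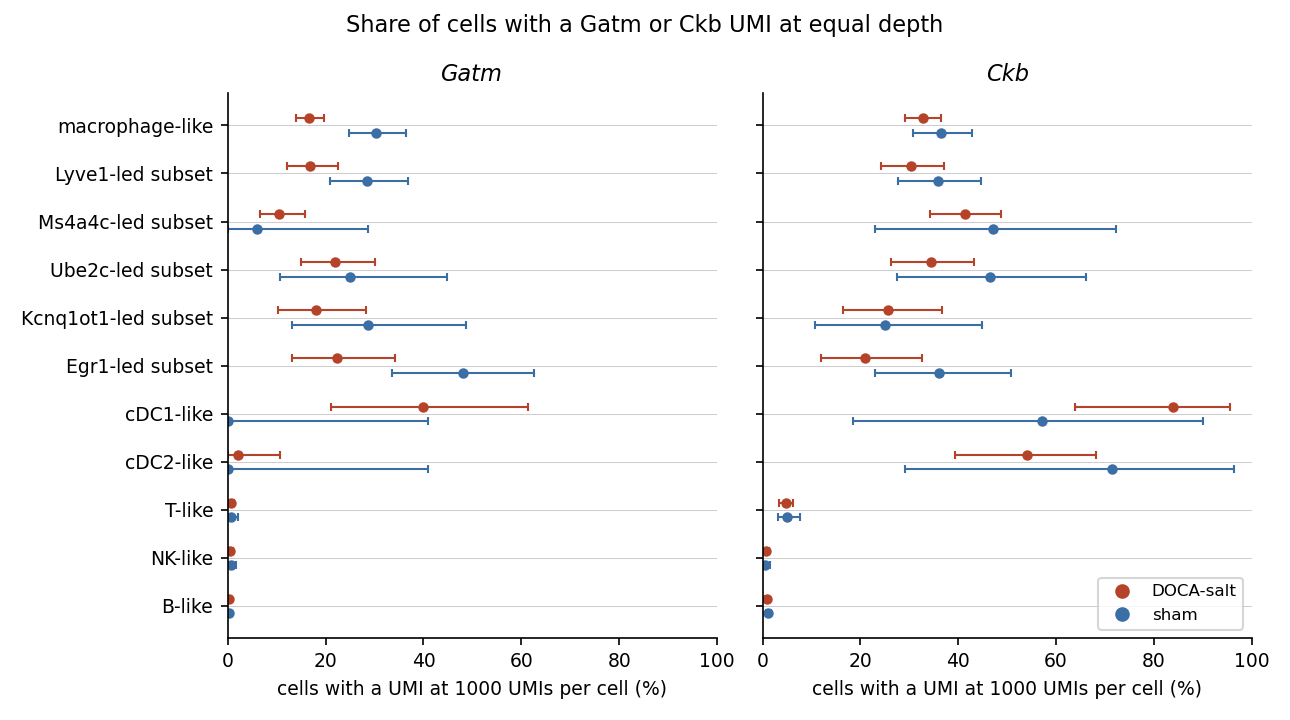
Share of cells with at least 1 Gatm (left) or Ckb (right) UMI after thinning every cell to 1000 UMIs, by class and macrophage-like subset, DOCA-salt above sham, with 95% Clopper-Pearson intervals over cells. For Gatm the macrophage-like intervals are 13.9 to 19.7% in DOCA-salt and 24.8 to 36.4% in sham, and B-like, NK-like and T-like cells lie below 1%; for Ckb the macrophage-like intervals overlap.

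Outside these cells Gatm was rare, and its ratio to the macrophage complement gene C1qa is given because free RNA carries both. Macrophage-like cells had 2.84 Gatm UMIs per 100 C1qa UMIs in DOCA-salt and 5.28 in sham hearts. B-like cells had 3.57 in DOCA-salt and 10.4 in sham hearts, and T-like cells had 5.25 in DOCA-salt and 10.2 in sham hearts. NK-like cells went the other way, with 6.599 in DOCA-salt and 5.41 in sham hearts. The B-like ratios rest on 23 and 34 Gatm UMIs in DOCA-salt and sham hearts. In the same order, the T-like ratios rest on 17 and 20 and the NK-like ratios on 26 and 8. In cDC1-like cells the ratio was 1462 in DOCA-salt and 333 in sham hearts, on only 8 and 3 C1qa UMIs. Pooled over mice, cDC1-like cells had 321 CPM of Gatm in DOCA-salt hearts (117 UMIs, 27 cells) and 152 CPM in sham hearts (10 UMIs, 7 cells), and no sham mouse had enough cells for a value of its own.

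Gamt, the second enzyme, was low and most abundant in macrophage-like cells (30.8 CPM, SD 8.78, 8 mice) and classical monocyte-like cells (28.6 CPM, SD 17.4, 6 mice), which overlapped. It followed with 20.9 CPM in the 1 counted mouse with cDC2-like cells, 11.5 CPM in nonclassical monocyte-like cells (SD 8.81, 8 mice), 6.78 CPM in cDC1-like cells (2 mice) and 4.14 CPM in B-like cells (SD 2.27, 8 mice). In macrophage-like cells it was 27.2, 27.5, 40.8 and 30.6 CPM in DOCA-salt mice (49, 19, 8 and 19 UMIs), against 24.9, 47.8, 23.5 and 24.5 CPM in sham mice (3, 16, 4 and 8 UMIs). The groups overlapped, with 31.5 ± 6.37 CPM in DOCA-salt mice and 30.2 ± 11.8 CPM in sham mice (SD, n = 4 each). The gene did not pass the filter on low counts in this class, so no fitted change is given.

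Slc6a8, the creatine transporter, was close to the limit of detection in every class. Macrophage-like cells held 12 UMIs in DOCA-salt and 4 in sham hearts. By mouse this was 4.43, 1.45, 10.2 and 1.61 CPM in DOCA-salt mice, against 0, 8.96, 0 and 3.06 CPM in sham mice. The groups overlapped, and a count of 0 in the sham mice allowed up to 24.9 and 17.6 CPM (3 UMIs). At this depth no difference was detectable. NK-like, nonclassical monocyte-like and neutrophil-like cells held no Slc6a8 UMI in DOCA-salt or sham hearts.

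Ckb, the kinase, was a gene of dendritic and macrophage-like cells. It averaged 1329.7 CPM in cDC1-like cells of 2 DOCA-salt mice (1227 and 1432) and was among the 10 leading genes of that cluster. The 1 counted mouse with cDC2-like cells, a DOCA-salt mouse, had 856 CPM. Macrophage-like cells averaged 498 CPM (SD 106, 8 mice, 362 to 671). Classical monocyte-like cells (129 CPM, SD 58.4, 6 mice, 91.1 to 244) lay below every macrophage-like value. Nonclassical monocyte-like (75.9), neutrophil-like (62.9), T-like (54.2), ILC2-like (33.5) and migratory DC-like (25.3 CPM, 1 mouse) cells followed, with B-like (11.7) and NK-like (11.4) cells last. Neighbours from nonclassical monocyte-like cells down overlapped by mouse, except that the 1 migratory DC-like value lay above all B-like values. An unnamed cluster led by Cd7, Cd209a and Siglech, the last a marker of plasmacytoid dendritic cells, had 548 ± 229 CPM in 3 DOCA-salt mice and 521 and 613 CPM in 2 sham mice.

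**Figure D4:**
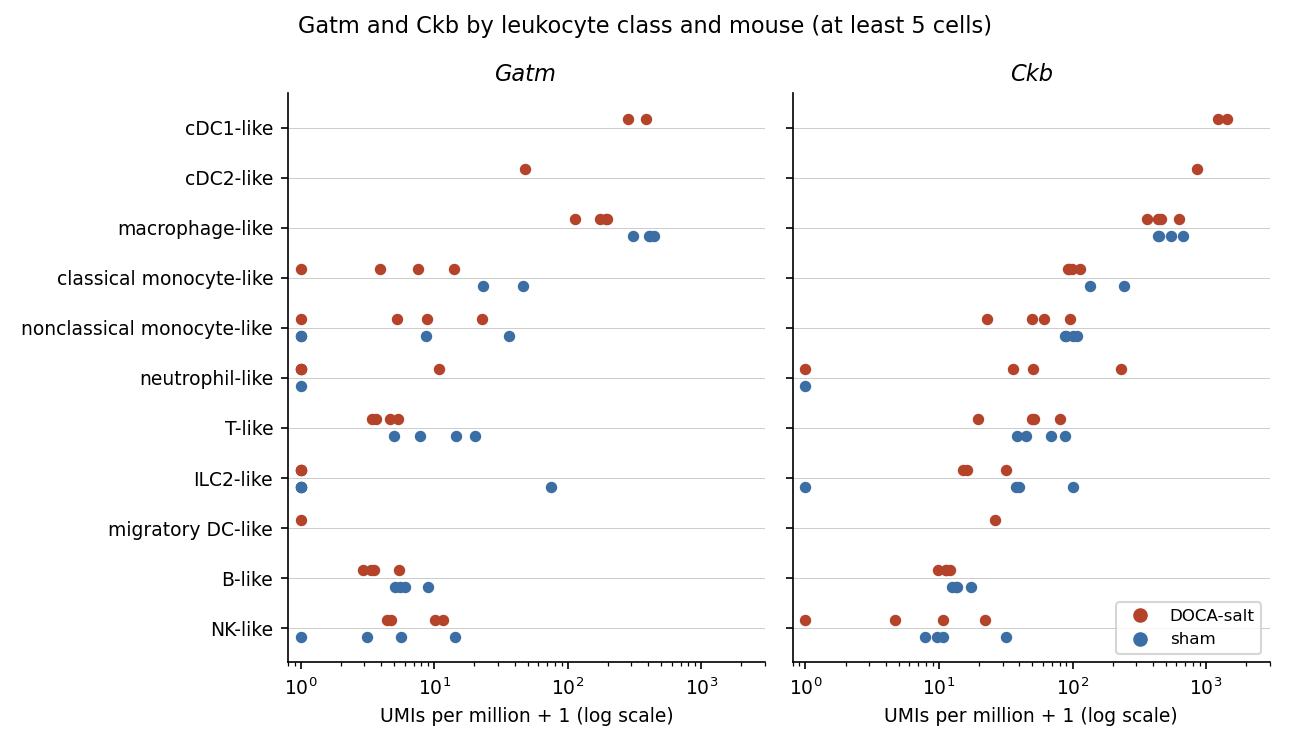
Gatm (left) and Ckb (right) by leukocyte class, as CPM + 1 on a log axis, 1 point per mouse with at least 5 cells of the class, DOCA-salt above sham in each class. cDC1-like and macrophage-like cells hold the highest Gatm values, and cDC1-like, cDC2-like and macrophage-like cells the highest Ckb values.

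In macrophage-like cells the mice of both groups held similar ranges of Ckb. DOCA-salt mice had 627, 461, 362 and 438 CPM (1132, 319, 71 and 272 UMIs), against 671, 543, 447 and 437 CPM in sham mice (81, 182, 76 and 143 UMIs). The groups overlapped, with 472 ± 112 CPM in DOCA-salt mice and 525 ± 109 CPM in sham mice (SD, n = 4 each) and a log2 change of -0.15 (SE 0.19). In the Lyve1-led subset Ckb was 362, 495, 316 and 362 CPM in DOCA-salt mice and 730.3, 643, 378 and 407 CPM in sham mice, which overlapped, with a log2 change of -0.43 (SE 0.19). In the Egr1-led subset it was 736, 645, 181 and 657 CPM in DOCA-salt mice and 629.8, 385, 654 and 413 CPM in sham mice, with a log2 change of 0.06 (SE 0.37). In the Ms4a4c-led subset Ckb was 655, 503, 875 and 603 CPM in DOCA-salt mice and 422 and 547 CPM in 2 sham mice. Its mean of 659 CPM among DOCA-salt mice was the highest of the 5 subsets there, where Gatm was lowest. The thinned share of macrophage-like cells with a Ckb UMI was 32.7% in DOCA-salt hearts (29.2 to 36.4) and 36.6% in sham hearts (30.7 to 42.8).

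In DOCA-salt hearts most Ckb UMIs of T-like cells came from 1 cluster, singled out after its values were seen. This cluster was led by Trdv4, Cd163l1 and Tcrg-V6, genes of a gamma-delta T cell receptor and of gamma-delta T cells, and held 50 DOCA-salt and 6 sham cells. Pooled over mice its Ckb was 666 CPM in DOCA-salt hearts (182 UMIs) and 632 CPM in sham hearts (18 UMIs), and it held no Gatm UMI in either group. It made up 5.56% of T-like cells and 65% of their Ckb UMIs in DOCA-salt hearts, and 1.43% and 17.3% in sham hearts. By mouse its Ckb was 588, 879, 318 and 768 CPM in DOCA-salt mice, where mouse 3 had 4 cells. The sham mice had 1 to 3 such cells each, too few for values by mouse.

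In the 5 other T-like clusters together Ckb was 37.1, 14.3, 9.55 and 13.4 CPM in DOCA-salt mice, against 45.1, 72.6, 40.2 and 37.4 CPM in sham mice. This set of clusters was formed after the values were seen, so these levels are a description. The 9 macrophage markers summed to 179 to 384 CPM in T-like cells of DOCA-salt mice and 255 to 663 CPM in those of sham mice, and their part in this was not tested. Over all T-like cells Ckb was 80.1, 48.5, 18.6 and 50.8 CPM in DOCA-salt mice and 68.3, 86.2, 43.8 and 37.2 CPM in sham mice, which overlapped, with a log2 change of -0.13 (SE 0.32).

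In B-like cells Ckb was low and was 11.2, 10.3, 8.91 and 10.3 CPM in DOCA-salt mice, against 11.5, 16.3, 12.4 and 12.6 CPM in sham mice. The groups did not overlap, with a log2 change of -0.36 (SE 0.20), and 4.78% of 8816 genes were lower in that way. C1qa was at 70.1 CPM in B-like cells of DOCA-salt hearts and 53.9 CPM in those of sham hearts. The 9 macrophage markers summed to 249 to 312 CPM in B-like cells of DOCA-salt mice and 222 to 259 CPM in those of sham mice. The 8 cardiomyocyte markers, Ckm and Ckmt2 among them, summed to 7.66 to 14.5 CPM in B-like cells of DOCA-salt mice and 14.9 to 42.9 CPM in those of sham mice, where Ckmt2 was at 0. These groups did not overlap either, and the part of these markers in the Ckb levels was not tested. In nonclassical monocyte-like cells Ckb was 94.3, 49.1, 21.8 and 60.1 CPM in DOCA-salt mice (12, 9, 2 and 14 UMIs), against 100.3, 107, 86.7 and 88.4 CPM in sham mice (13, 14, 6 and 5 UMIs). The groups overlapped there through 1 DOCA-salt mouse, with a log2 change of -0.75 (SE 0.35). Classical monocyte-like cells had 113, 98.2, 93.5 and 91.1 CPM in DOCA-salt mice and 135 and 244 CPM in 2 sham mice with 5 cells each.

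The muscle kinases were rare in macrophage-like cells. Ckm had 29 UMIs in DOCA-salt and 18 in sham macrophage-like cells (10.7 ± 4.57 CPM in DOCA-salt and 14.2 ± 15.7 CPM in sham mice; SD, n = 4 each). Ckmt2, the mitochondrial form of muscle, had 13 UMIs in DOCA-salt and 6 in sham cells, and Ckmt1 had none in either. All 8 cardiomyocyte markers, these kinases among them, were detected and summed to 111 to 229 CPM in DOCA-salt mice and 74.6 to 203 CPM in sham mice. Their part in the creatine genes' levels was not tested.

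The genes whose levels ran most like those of Gatm over 69 points of class and mouse (39 DOCA-salt, 30 sham) were Arhgap22 (r = 0.83), Serpinf1 (0.83), Rab7b (0.76), Sult1a1 (0.74) and Fcgrt (0.72), by Pearson's r of log2(CPM + 10) among 2980 genes. Those most like Ckb were Acvrl1 (r = 0.84), Pak1 (0.84), Ppfia4 (0.82), H2-DMb1 (0.81) and Cst3 (0.80). The lists share no gene. Within macrophage-like cells, over 33 points of subset and mouse, Gatm ran most like Pea15a (r = 0.69), Lilra5 (0.59), Serpinb6a (0.56), Hmgn1 (0.54) and Tsc22d3 (0.52). The points share mice, libraries and cluster assignment, so these are descriptions.

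The 71 other genes of the pathway, in 7 lists, held no gene past the threshold in macrophage-like cells. Of these, 24 had enough counts to be tested by edgeR's quasi-likelihood test, 0 passed the Benjamini-Hochberg adjusted threshold of 0.05 and 1 had an unadjusted p under 0.05, while DESeq2 also called 0. Over all 4705 genes 16 passed (6 higher, 10 lower; 0.34%). The 24 log2 changes ran from -0.51 to 0.41 with SEs of 0.15 to 0.40, 15 above 0 and 9 below, with a median of 0.08 against 0.01 over all genes. Members were left out of the pathway counts. The counts over all 4705 genes include Gatm and Ckb, so the 0.34% is not free of a gene chosen on this contrast.

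The gene with the unadjusted p under 0.05 was Slc25a4, the heart and muscle form of the carrier that exchanges ADP and ATP across the inner mitochondrial membrane. It had 125, 121, 96.8 and 101 CPM in DOCA-salt mice and 133, 200.03, 159 and 135 CPM in sham mice. The groups did not overlap, but its log2 change of -0.51 (SE 0.19) had an edgeR adjusted p of 0.36. Slc25a5, the widely expressed form, averaged 272 ± 50.1 CPM in DOCA-salt mice and 240.1 ± 14.7 CPM in sham mice (log2 change 0.19, SE 0.17). Of the 7 adenylate and ATP exchange genes tested, Prkag1 (0.41, a subunit of AMP-activated kinase) and Vdac3 (0.18, an outer membrane channel) had log2 changes above 0.

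Arginine, the substrate of Gatm, is handled by a list of which 5 of 15 genes were tested, with a median log2 change of -0.21. They included Prmt1, an arginine methyltransferase (-0.43, SE 0.22, edgeR adjusted p = 0.632), the transporter subunit Slc7a7 (-0.32, SE 0.26) and Oat, which degrades ornithine (-0.21, SE 0.21). Arg1, which splits arginine and marks some activated macrophages, had too few counts for the test; it had 58, 0, 0 and 2 UMIs in DOCA-salt mice and 0 in every sham mouse, so nearly all of it was from 1 mouse. Nos2, the inducible nitric oxide synthase, had 1 UMI in DOCA-salt and 0 in sham cells. Of the glycine and serine list 2 of 12 genes were tested (median 0.13), and of the methyl donor list, which supplies Gamt, 4 of 15 (median -0.02). Among the methyl donor genes Ahcy, which clears S-adenosylhomocysteine, had a log2 change of 0.37 (SE 0.34) and its relative Ahcyl2 one of -0.24 (SE 0.34).

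Ornithine is the other product of Gatm and the source of the polyamines, and 5 of 9 genes of that list were tested in macrophage-like cells (median log2 change 0.12). Sat1, which acetylates polyamines, averaged 484 ± 63.0 CPM in DOCA-salt mice and 582 ± 76.7 CPM in sham mice (log2 change -0.28, SE 0.16, edgeR adjusted p = 0.678; SD, n = 4 each). Sms, spermine synthase, had a log2 change of 0.27 (SE 0.38). Its mean CPM went the other way, with 36.4 ± 11.1 in DOCA-salt mice and 38.1 ± 22.4 in sham mice. Of the creatine export and precursor transport list, Slc6a6, the taurine transporter, was tested (log2 change 0.10, SE 0.20), while Slc16a12 and Slc16a9 had no UMI.

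**Figure D5:**
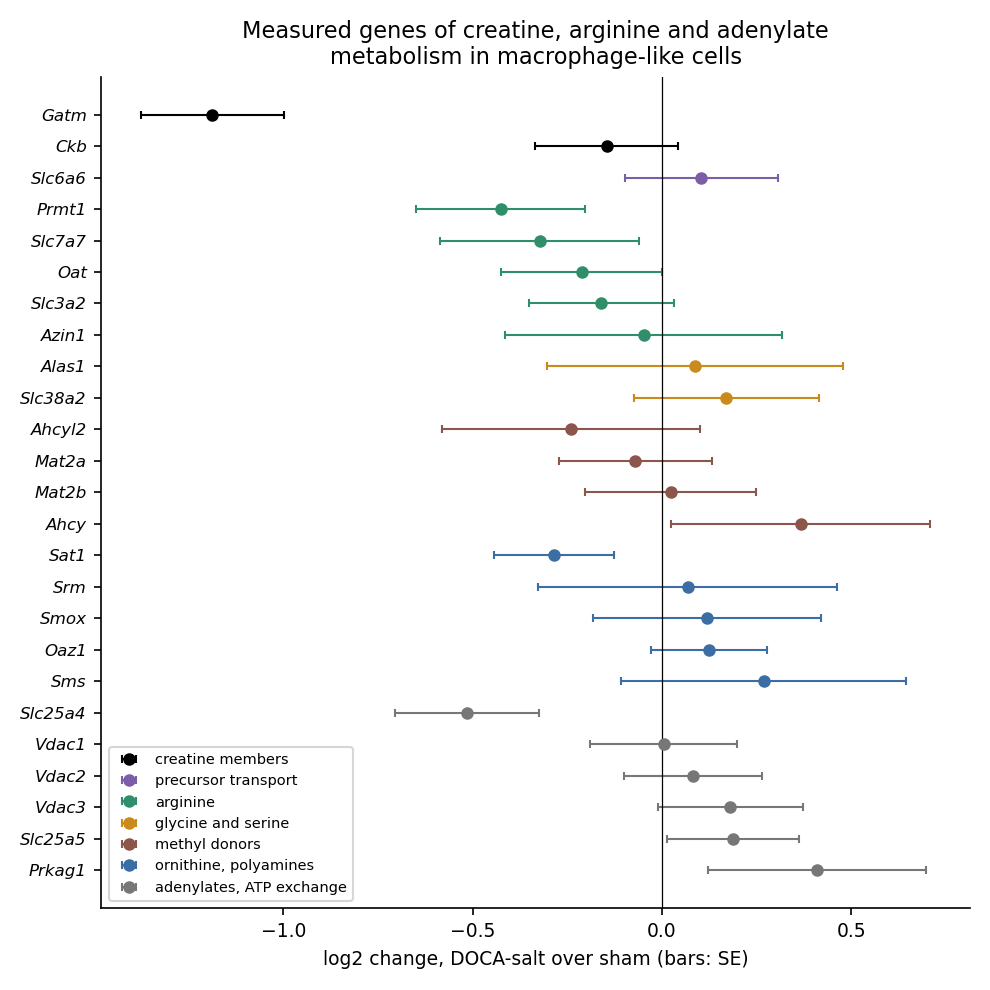
Log2 change of DOCA-salt over sham with its SE in macrophage-like cells, for the 2 creatine genes and 23 pathway genes with enough counts, coloured by list. Gatm lies at -1.19, while the 23 pathway genes lie between -0.51 and 0.41.

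In the other classes 1 pathway gene passed the threshold. Amd1, the decarboxylase that feeds polyamine synthesis, fell in B-like cells to 29.1, 27.9, 33.4 and 21.5 CPM in DOCA-salt mice, against 47.3, 39.2, 60.9 and 50.4 CPM in sham mice. The groups did not overlap (log2 change -0.81, SE 0.15, edgeR adjusted p = 0.00971), and it was 1 of 42 pathway genes tested there, against 153 of 8816 genes (1.74%) called in either direction. DESeq2 also called 1 pathway gene in B-like cells. Its near-identical copy Amd2 had 8.71 CPM in DOCA-salt and 12.2 CPM in sham B-like cells, and the counting may have split reads between them, so the value of Amd1 is uncertain.

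Elsewhere edgeR called 0 of 33 pathway genes in NK-like cells (4 at an unadjusted p under 0.05; 0.886% of all genes called), 0 of 35 in T-like cells (4; 0.417%), 0 of 11 in nonclassical monocyte-like cells (0; 1.96%) and 0 of 1 in ILC2-like cells (0; 0%). DESeq2 called 0 in each of these 4 classes. ILC2-like cells were fitted with 3 DOCA-salt and 4 sham mice, and 25 of 387 genes there had an unadjusted p under 0.05.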

How the data were processed

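The deposited matrices hold raw UMI counts for 31053 genes and 20 antibody features, 4 of them hashtags. The authors made these counts with Cell Ranger, at version 3.1.0 per the file headers; Seurat 4 and mm10 are named in the submitters' processing notes. Feature and barcode lists, as deposited, are other data: text identifiers without measured values. No column of a sample went unread. The members and gene lists were chosen with earlier results of these data known.

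Of 7600 DOCA-salt and 4359 sham barcodes, 7351 and 4254 passed a minimum of 200 genes and a maximum of 10% mitochondrial UMIs. Scrublet, through scanpy 1.11.5, marked 243 (3.31%) and 53 (1.25%) doublets, which were removed. A cell took the mouse of its highest hashtag when that was at least 2 times the next, which 321 and 136 cells failed. Log-normalised counts of 2000 variable genes were reduced to 30 components and clustered by Leiden (leidenalg 0.10.2, resolution 1, 15 neighbours). The macrophage-like cluster was clustered again at 0.5. So were clusters with markers of both cDC1 and cDC2 or of both T cells and ILC2, a rule set after the clusters were seen. A class name needed 3 markers in at least 15% of cells at a log2 fold of 1, and clusters with markers of several lineages stayed unnamed. The macrophage-like subsets kept the name of the cluster they were split from, whatever this rule gave for each.

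UMIs were summed per mouse and class, with mice under 5 cells left out and at least 3 mice per group required. They were filtered (filterByExpr), scaled (TMM) and tested, two-sided, with edgeR 4.0.16 (R 4.3.3); p was adjusted by Benjamini-Hochberg over all genes of a class. The test was tried on simulated data first. UMIs per mouse in macrophage-like cells ran from 120680 to 1804310. DESeq2 1.42.0 and the other alternatives are listed at the end. Shares have 95% Clopper-Pearson intervals.

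Named were the 4 members, each pathway gene past the threshold, up to 12 pathway genes of at least 20 CPM with the largest change in macrophage-like cells, and for likeness the 5 genes of highest r with a mean of at least 50 CPM in macrophage-like cells (points of at least 20000 UMIs; for subsets, of at least 10 cells). Other genes were named to describe clusters or marker lists, or, for Arg1, Nos2, Amd2 and the Trdv4-led cluster, once values had been seen. GENCODE M21 (GRCm38) gave the positions. The value of 1 pathway gene is not reported here, though the counts include it.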

Additional observations from a re-analysis of the deposited data

Results flagged for a closer look

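In 42 groups of 4 mice examined for the creatine genes, 4 held 1 mouse whose gap to the nearest other mouse, divided by the group's range, exceeded Dixon's 95% critical value for 4 values. Chance exceeds that value in about 1 in 20 groups. In macrophage-like cells 1 sham mouse had 47.8 CPM of Gamt, above the other sham mice at 23.5 to 24.9 CPM, with 16 UMIs behind it. In NK-like cells 1 sham mouse had 31.0 CPM of Ckb, above the others at 6.92 to 9.72 CPM, with 7 UMIs. In the Kcnq1ot1-led macrophage-like subset 1 DOCA-salt mouse had 91.9 CPM of Gatm, below the others at 196 to 214 CPM, with 5 UMIs. In the Egr1-led subset 1 DOCA-salt mouse had 181 CPM of Ckb, below the others at 645 to 736 CPM, with 12 UMIs.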

How the results depend on the processing

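The log2 change of Gatm in macrophage-like cells was below 0 under all 21 alternatives (-1.43 to -0.86; -1.30 to -1.08 on leaving out each mouse in turn) and differed from -1.19 by more than the spread between mice only within the Lyve1-led subset (-0.86). That of Ckb ran from -0.68 to 0.06 (-0.32 to -0.03 on leaving out each mouse) and moved that far only within the Ube2c-led subset (-0.68). The Ms4a4c-led subset had too few sham mice to be fitted, and in the Kcnq1ot1-led subset no creatine gene passed the filter. Leaving out the Ms4a4c-led or the Kcnq1ot1-led subset was chosen after seeing the data; Gatm was then -1.03 and -1.19, and Ckb -0.34 and -0.13. The 16 genes called in macrophage-like cells were 6 with a stricter cell filter, 53 with each library clustered on its own and 127 with no filter on low counts. Leaving out each mouse gave 5 to 23: 5 without DOCA-salt mouse 2, sham mouse 2 or sham mouse 4, 7 without sham mouse 3 and 8 without sham mouse 1. Pathway genes called there stayed at 0 except for 1, Arg1, with no filter. In the other classes the count of 1 was 2 at Leiden resolution 0.5 (Slc25a4 in nonclassical monocyte-like cells beside Amd1), 4 with no filter, and 1 to 2 on leaving out each mouse (2 without DOCA-salt mouse 1, DOCA-salt mouse 3 or sham mouse 3). Amd1 in B-like cells was called in all 16 alternatives. The causes were not tested. No paired analysis was possible because a hashtag number names a mouse inside 1 library and ties no DOCA-salt mouse to any sham mouse. Depth limits Slc6a8, Gamt and every value in dendritic cells of sham hearts.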

Other observations

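An unnamed cluster that held B cell genes together with macrophage markers (171 DOCA-salt and 230 sham cells) had intermediate levels of the creatine genes. Its Gatm averaged 62.6 ± 38.3 CPM in DOCA-salt mice and 79.5 ± 29.1 CPM in sham mice (SD, n = 4 each), and its Ckb 104 ± 40.3 CPM in DOCA-salt mice and 114 ± 16.2 CPM in sham mice. Another unnamed cluster, led by Xcl1, Ccl5 and Il2rb (53 DOCA-salt and 20 sham cells), had 96.2 CPM of Ckb pooled over DOCA-salt mice (27 UMIs) and 89.1 CPM pooled over sham mice (10 UMIs), against 9.86 CPM in NK-like cells of DOCA-salt mice and 10.7 CPM in those of sham mice.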
